A study of Mus musculus with 6 samples.

Results

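Ciliary neurotrophic factor (CNTF) and interleukin-6 (IL-6) belong to one cytokine family whose receptors share a signalling subunit. The open chromatin described here lies around 8 mouse genes of that pathway. They were the ligand-binding receptors Cntfr, Il6ra and Il11ra1, the signal-transducing subunits Lifr, Il6st and Osmr, the transcription factor Stat3 and the feedback inhibitor Socs3. A region belonged to a gene when the strongest peak summit lay in the gene body or within 20 kb of it (GRCm38 with GENCODE release M21), and 80 of 99359 merged regions did. The regions were chosen by the presence of a peak in a list and by its position, and the 8 genes were picked with results of these data in view.

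The libraries were ATAC-seq, in which a transposase cuts accessible DNA and inserts sequencing adapters. Each of the 6 was made from 3 hand-dissected S1 segments, the first stretch of the kidney proximal tubule, of wild-type male C57BL/6 mice aged 7 weeks. The mice had undergone either a sham operation (Sham, 3 libraries) or unilateral nephrectomy, the removal of 1 kidney (UNx, 3 libraries), 24 h earlier. The labels do not say that each library came from its own mouse, so a p-value measures only the spread between these samples, which may be technical.

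In this pathway CNTF, IL-6 or IL-11 binds its own receptor chain (CNTFR, IL-6R or IL-11R). The complex then engages gp130, the product of Il6st, and in the case of CNTF also LIFR. OSMR pairs with gp130 in the receptor for oncostatin M. The paired chains activate Janus kinases, which phosphorylate STAT3. STAT3 enters the nucleus and binds sites made of TTC and GAA around a short spacer, and STAT3 induces SOCS3, which blocks gp130 signalling. In the kidney the pathway is known mostly from tubular injury and inflammation.

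The sequences below are the centres of the 3 Cntfr intron regions that passed the test. With them are the centres of the most different distal regions of Il6st and Socs3 and of the Socs3 promoter, which did not pass. All ranked higher after UNx, and no region that ranked lower is printed. Whether any base in them bears on a difference was not tested. Each sequence is the GRCm38 forward strand from 100 bases before to 100 bases after the strongest summit. Capitals mark a match to the STAT string TTCNNNGAA or to the HNF4 string CAAAGTCCA, on either strand. Distances are from the nearest start of a transcript of the gene in the basic GENCODE set, with minus for upstream. Gene spans are those of the whole gene record, and for Lifr, Socs3 and Cntfr the first basic start lies inside the span (for Lifr at 7129559, for Socs3 at 117969186 and for Cntfr at 41697040). The 3 Cntfr windows were chr4:41676772-41676972, chr4:41665103-41665303 and chr4:41659072-41659272, the Il6st window chr13:112460045-112460245, and the Socs3 windows chr11:117962225-117962425 and chr11:117969211-117969411.
Cntfr intron at +18.57 kb: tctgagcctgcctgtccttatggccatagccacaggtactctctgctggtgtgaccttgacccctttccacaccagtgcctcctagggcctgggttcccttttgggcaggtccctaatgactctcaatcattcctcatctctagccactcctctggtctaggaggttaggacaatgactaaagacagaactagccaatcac
Cntfr intron at +30.24 kb: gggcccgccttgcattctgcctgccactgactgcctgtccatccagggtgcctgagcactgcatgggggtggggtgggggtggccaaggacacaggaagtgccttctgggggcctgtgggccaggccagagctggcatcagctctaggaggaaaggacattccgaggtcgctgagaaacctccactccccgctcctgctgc
Cntfr intron at +36.27 kb: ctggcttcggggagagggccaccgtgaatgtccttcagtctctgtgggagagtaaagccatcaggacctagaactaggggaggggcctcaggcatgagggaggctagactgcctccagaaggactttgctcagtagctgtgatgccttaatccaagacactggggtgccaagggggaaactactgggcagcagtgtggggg
Il6st upstream region at -3.92 kb: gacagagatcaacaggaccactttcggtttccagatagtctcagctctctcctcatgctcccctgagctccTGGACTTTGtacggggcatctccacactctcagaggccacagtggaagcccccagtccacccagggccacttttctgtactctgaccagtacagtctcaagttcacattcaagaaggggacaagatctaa
Socs3 downstream region at +6.86 kb: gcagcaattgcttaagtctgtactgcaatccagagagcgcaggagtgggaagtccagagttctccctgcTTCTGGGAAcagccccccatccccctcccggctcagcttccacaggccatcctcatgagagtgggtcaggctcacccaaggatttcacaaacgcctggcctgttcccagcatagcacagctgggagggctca
Socs3 promoter: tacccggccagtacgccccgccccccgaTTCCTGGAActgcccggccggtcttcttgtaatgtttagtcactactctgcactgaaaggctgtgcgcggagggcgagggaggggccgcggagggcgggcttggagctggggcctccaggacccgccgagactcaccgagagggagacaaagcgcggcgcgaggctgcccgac
None of the 3 Cntfr windows held either string. The Socs3 promoter held TTCCTGGAA at chr11:117969239-117969247, 57 bp from the Socs3 start of the basic set and 68 bp from the summit. The downstream Socs3 region held TTCTGGGAA 27 bp from its summit. The Il6st region held the HNF4 string, read as TGGACTTTG, 25 bp from its summit.

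Each library has its own peak list from the authors, and the values compared here are ranks within a list. Only the 77355 peaks of highest −log10 q in each list were kept, which is the length of the shortest list (Sham 2). A region's percentile rank was close to 100 for the strongest peaks and 0 where the list had no peak there among those kept. Sham lists held 77355 to 97834 peaks and UNx lists 93583 to 100999, and sequencing depth is unknown because the lists hold no read counts. Promoters of 10 proximal tubule genes (Slc5a2, Lrp2 and Hnf4a among them) had a mean rank of 79.8 to 81.0 in every library. Of 5 immune genes 0 had a promoter region, and 5 endothelial genes had a mean rank of 4.69 to 7.95 in Sham and 0 to 0.878 in UNx libraries. The 3 podocyte genes had a mean rank of 21.2 to 32.5 in Sham and 19.0 to 27.5 in UNx libraries. Of 7 genes of other nephron segments 5 had a promoter region, and the list had a mean rank of 49.7 to 53.1 in Sham and 46.2 to 49.5 in UNx libraries. Of the 5, 3 were higher and 2 lower after UNx, with a median difference of 0.854 points. The most different, Slc12a1, a transporter gene of the thick ascending limb, ranked 52.4 to 60.2 in Sham and 19.4 to 38.2 in UNx libraries (limma adjusted p = 0.131). Scnn1g was also lower without overlap, while Aqp3 was higher without overlap. Umod ranked 65.0 to 66.2 in Sham and 65.0 to 74.2 in UNx libraries. Of 5 stromal and muscle genes 2 had a promoter region, and the list had a mean rank of 29.3 to 32.4 in Sham and 27.3 to 31.1 in UNx libraries. Pdgfra ranked 85.5 in Sham and 87.0 in UNx libraries on average, with overlap. Col1a1 ranked 69.2 and 61.0 on average, lower after UNx without overlap. The part of other cell types in the results below was not tested.

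Of the 80 regions, 15 were at a start of one of the 8 genes (within 1 kb), 11 were at the start of another protein-coding gene inside a window, and 54 were distal. Regions present in at least 3 lists were tested, which left 61 (9, 9 and 43 in these classes) and set 19 aside. All 6 lists held 44 of the regions and only 1 list held 15. For comparison, 53.4% of all merged regions were in all 6 lists and 16.3% in 1. In limma with Benjamini-Hochberg adjustment over all 74781 tested regions, 3 of the 61 passed 0.05, all higher after UNx and all in introns of Cntfr. Over all tested regions 0.788% passed and 0.435% passed with a higher rank after UNx, and of those over 1 kb from a protein-coding start 0.870% passed. The UNx ranks lay wholly above or wholly below the Sham ranks in 23 of the 61 (37.7%; 12 above and 11 below), against 23.7% of all tested regions (12.0% above and 11.7% below).

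Cntfr encodes the chain that binds CNTF and is anchored to the membrane by a lipid. The gene lies on the minus strand at chr4:41657498-41697089, and 15 regions were assigned to it. After UNx, 3 of its intronic regions stood 37.6 to 47.5 percentile points higher than after the sham operation, while the groups overlapped at its promoter. The groups overlapped too at every other tested distal region assigned to Cntfr.

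The Cntfr region at +18.57 kb (chr4:41676422-41677675) ranked 45.3, 55.1 and 42.3 in Sham libraries 1, 2 and 3 and 85.8, 88.5 and 81.1 in the UNx libraries. A mid-ranked site in each Sham list was thus among the stronger peaks in each UNx list. The difference was 37.6 points (SE 5.87, limma adjusted p = 0.0160). It passed the threshold when any 1 library was left out, except UNx 1.

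At +36.27 kb in Cntfr (chr4:41658491-41659483) the Sham ranks were 51.5, 26.0 and 31.2 and the UNx ranks 88.3, 86.7 and 74.2. The lowest UNx rank was above the highest Sham rank, and the Sham libraries were spread more widely than the UNx libraries. The difference was 46.8 points (SE 7.61, limma adjusted p = 0.0185), and it missed the threshold without Sham 3 (44.3 points) or without UNx 1 (44.2 points). The summits of the 6 lists fell within 48 bp of each other. At +18.57 and +30.24 kb they were spread over 331 and 427 bp. The sequence windows printed for those 2 sites therefore do not hold the summits of all 6 lists.

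The weakest of the 3 Cntfr sites, at +30.24 kb (chr4:41664575-41665659), ranked 23.4, 16.1 and 0 in Sham and 53.3, 65.9 and 62.8 in UNx libraries. The 0 of Sham 3 is a peak below its 77355 strongest, since the whole deposited list of Sham 3 held it. The difference was 47.5 points (SE 10.1, limma adjusted p = 0.0391), and it missed the threshold without any 1 of the 6 libraries (40.9 to 52.6 points).

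All 3 Cntfr regions had a peak in every deposited list of both operations, so the lists differed in rank and not in presence. Among 60773 tested distal regions, 75 (0.123%) had a larger difference than the Cntfr site at +30.24 kb, 82 (0.135%) than that at +36.27 kb and 409 (0.673%) than that at +18.57 kb. After correction of each library's ranks for GC content the differences were 36.3, 46.5 and 45.5 points in the order of +18.57, +30.24 and +36.27 kb. None then passed, with limma adjusted p = 0.0817, 0.0822 and 0.0822, and 2 regions of the whole series did. With the replicate number as a block, 2 of the 3 passed (adjusted p = 0.0406, 0.0767 and 0.0395 in the same order).

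**Figure D1:**
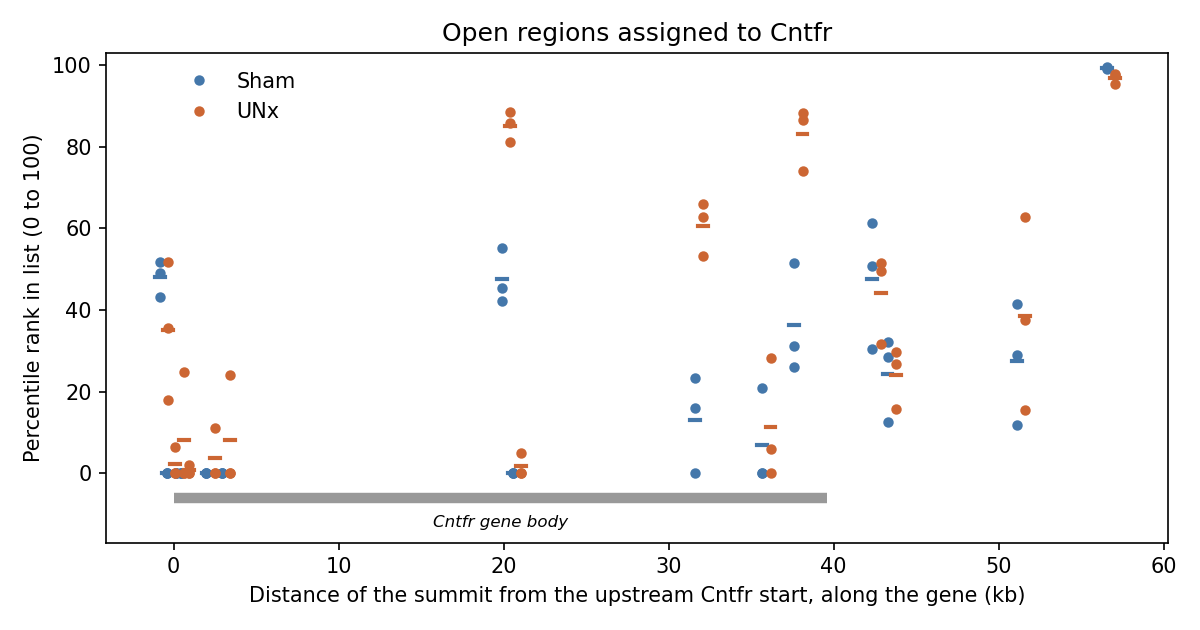
Percentile rank (0 to 100) of the 15 regions assigned to Cntfr in each library, against the distance of the summit from the upstream Cntfr start along the gene in kb; points are libraries, short lines are group means and the grey bar is the gene body. The 3 sites inside the gene where all UNx points lie above all Sham points are those at +18.57, +30.24 and +36.27 kb from their nearest start, and the promoter point groups overlap.

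None of the other Cntfr regions passed the test. Its promoter region at -0.59 kb (chr4:41697492-41697750) ranked 49.1, 51.8 and 43.2 in Sham and 18.0, 35.6 and 51.9 in UNx libraries. The groups overlapped, with UNx 3 as high as the highest Sham library, and the difference was −12.9 points (SE 9.997, limma adjusted p = 0.517). Another 4 regions within 1 kb of a Cntfr start were each among the kept peaks of 1 UNx list and no Sham list, at ranks of 2.09 to 24.7, and were not tested. The intronic region at +34.33 kb, between the sites at +30.24 and +36.27 kb, ranked 0, 20.96 and 0 in Sham and 0, 5.96 and 28.2 in UNx libraries. Downstream of the gene, the Cntfr regions at +41.01, +41.92 and +49.75 kb differed by −3.31, −0.264 and 11.2 points, each with overlapping groups. The region at +55.21 kb is the promoter of Enho, which encodes the secreted peptide adropin, and it ranked 99.4 ± 0.243 in Sham and 97.0 ± 1.28 after UNx (SD, n = 3; limma adjusted p = 0.323), with no overlap.

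A count over the genome places the 3 sites, by a rule set after their values were seen. Of all tested regions, 1.68% were at least 30 points higher after UNx with groups that did not overlap. The window of Cntfr, taken whole, held 10 tested distal regions, and 3 met that rule. Of 15858 protein-coding genes with a tested distal region in such a window, 26 (0.164%) held 3 or more. Of 1577 genes with 8 to 12 tested distal regions, 2 (0.127%) did. Windows of neighbouring genes overlap, so one group of regions can be counted for more than 1 gene.

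**Figure D2:**
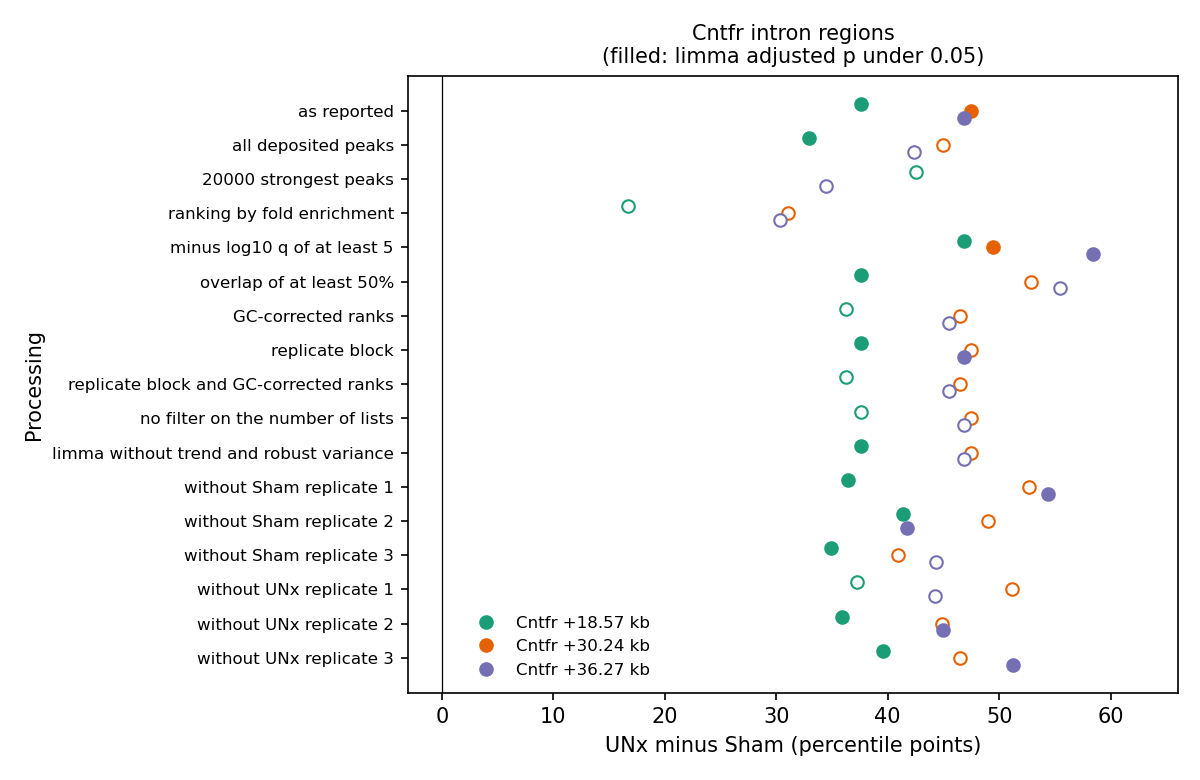
Difference in percentile rank (UNx minus Sham, percentile points) of the Cntfr regions at +18.57, +30.24 and +36.27 kb under each way of processing the lists that keeps this scale (normal scores do not); filled points had a limma adjusted p under 0.05. All differences lie above 0, from 16.7 to 58.4 points, while many are open points.

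Il6ra and Il11ra1, the other ligand-binding chains, showed no call. Il6ra (chr3:89864059-89913196, minus strand) encodes the IL-6 receptor and had 3 regions. Its promoter (chr3:89912542-89913614) ranked 71.9, 72.7 and 77.0 in Sham and 85.0, 78.4 and 78.4 in UNx libraries. Every UNx rank was above every Sham rank, as in 9.26% of the tested promoters of protein-coding genes. The difference of 6.76 points (SE 4.21) had a limma adjusted p of 0.405. A weak region at +65.37 kb, past the end of Il6ra in an intron of the neighbouring gene She, ranked 4.03, 17.1 and 8.91 in Sham and was absent from all 3 UNx lists as deposited (difference −10.01, limma adjusted p = 0.468). The other downstream region, at +54.84 kb in the She 3′ UTR, ranked 24.3 ± 4.46 in Sham and 14.2 ± 10.4 after UNx (SD, n = 3; difference −10.03, adjusted p = 0.645), with overlapping groups.

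Il11ra1 encodes the IL-11 receptor chain and lies head to head with Cntfr at chr4:41699989-41769474 on the plus strand. The nearest starts of the pair are 2949 bp apart, and the 12 regions in both windows were given to the gene whose start was nearer. No region lay within 1 kb of the Il11ra1 start that faces Cntfr, at 41699989. The Il11ra1 promoter described here (chr4:41760105-41760786) is at an inner start of the gene. It ranked 96.1, 95.0 and 96.5 in Sham and 98.3, 97.0 and 98.1 in UNx libraries. The groups did not overlap, but the gap was small, at 1.93 points (SE 1.38, limma adjusted p = 0.474). A weaker region at -0.80 kb differed by 2.26 points (adjusted p = 0.929), and one at +0.51 kb was kept in 1 UNx list at rank 12.7 and not tested.

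Of the 4 distal Il11ra1 regions, the strongest, at +7.32 kb, ranked 65.3 ± 9.28 in Sham and 64.7 ± 8.56 after UNx (SD, n = 3). The most different was at +15.79 kb, where Sham libraries ranked 31.9, 35.0 and 27.8 and UNx libraries 0, 5.69 and 12.4. That is a difference of −25.6 points without overlap (SE 10.04, limma adjusted p = 0.183). The long Il11ra1 window also held 9 regions at starts of other genes, among them Rpp25l and Arid3c. The one at the start of Arid3c (chr4:41731022-41731411) ranked 0, 0 and 0 in Sham and 26.2, 27.2 and 17.5 in UNx libraries (difference 23.6, SE 8.41, limma adjusted p = 0.147). The whole lists of Sham 1 and Sham 3 held it below their strongest peaks, and the list of Sham 2 did not hold it.

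**Figure D3:**
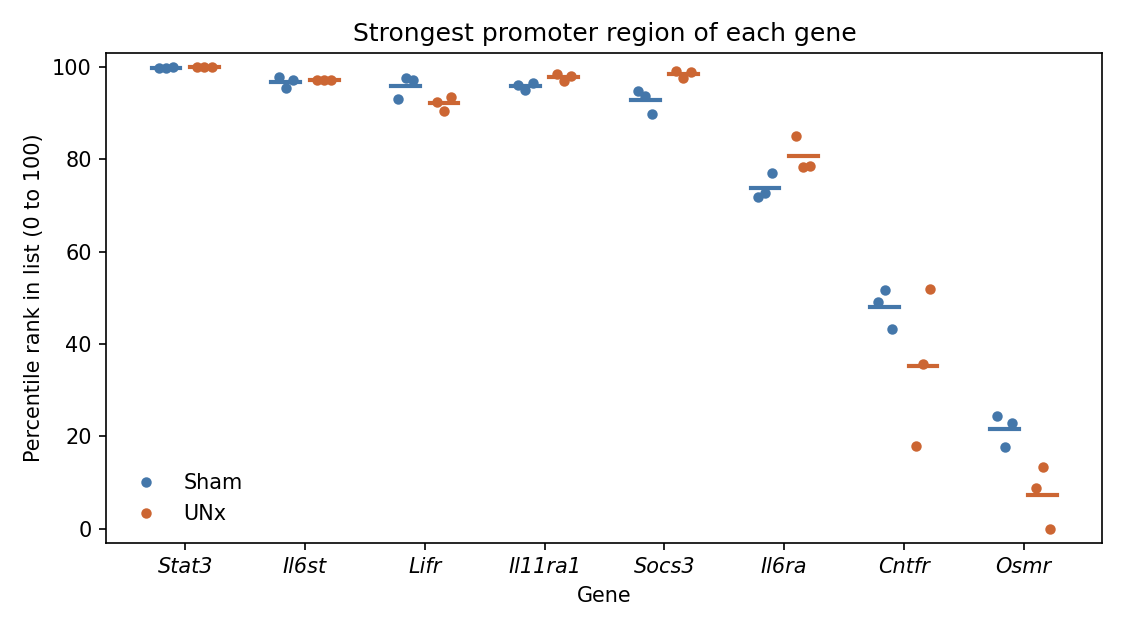
Percentile rank (0 to 100) of the promoter region of each of the 8 genes in the 3 Sham and 3 UNx libraries; points are libraries and short lines are group means. Stat3 is at the top at 99.8 or above in every library and Osmr at the bottom at 24.3 or below, and the Socs3, Il11ra1 and Il6ra points of UNx lie above those of Sham.

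The promoters of the 8 genes differed far more from each other than between the operations. In Sham libraries the mean ranks ran from Stat3 (99.8 ± 0.0773) through Il6st (96.8 ± 1.25), Lifr (96.0 ± 2.53), Il11ra1 (95.9 ± 0.774), Socs3 (92.7 ± 2.64), Il6ra (73.8 ± 2.72) and Cntfr (48.0 ± 4.38) to Osmr (21.6 ± 3.52; SD, n = 3 each). In that order only the neighbours Il6st and Lifr, and Lifr and Il11ra1, overlapped. Il11ra1 and Socs3 did not overlap in Sham libraries, where the lowest Il11ra1 rank was 95.0 and the highest Socs3 rank 94.8. Among promoters of 13795 protein-coding genes, 99.6% ranked lower on average than Stat3, 86.1% than Il6st, 85.4% than Il11ra1, 80.1% than Socs3 and 74.5% than Lifr. For Il6ra, Cntfr and Osmr the share was smaller: 35.9% ranked lower than Il6ra, 13.9% than Cntfr and 7.02% than Osmr. Ranks compare the strength of peaks in a list and are not adjusted for region length.

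None of the 8 promoters passed the limma test, where 0.394% of the 13203 tested promoters of protein-coding genes did. The UNx and Sham ranks did not overlap at 4 of the 8, Socs3, Il6ra and Il11ra1 being higher and Osmr lower after UNx, against 19.9% of those promoters. Over the 9 tested promoter regions of these genes the median difference was 0.399 points, beside 0.00366 for all tested promoter regions.

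Il6st encodes gp130, the chain that all these receptors share, at chr13:112464070-112510086 on the plus strand. Its promoter (chr13:112463597-112464781) ranked 97.8, 95.4 and 97.2 in Sham and 97.2, 97.3 and 97.1 in UNx libraries. The UNx ranks lay within the Sham range (difference 0.399, SE 1.38, limma adjusted p = 0.911). A region upstream and one at its end differed in opposite directions without passing the test. The upstream region at -3.92 kb (chr13:112459951-112460402) ranked 56.6, 45.4 and 17.2 in Sham and 76.9, 62.3 and 84.7 in UNx libraries. All UNx ranks were above all Sham ranks, with Sham 3 far below the other Sham libraries, and the difference was 34.9 points (SE 9.18, limma adjusted p = 0.0706). On normal scores its adjusted p was 0.0259, and under every other alternative run it missed the threshold, with adjusted p up to 0.365 (0.151 with GC-corrected ranks). The Il6st region at +34.62 kb, in the 3′ UTR, ranked 79.7, 76.7 and 58.4 in Sham and 37.2, 56.3 and 36.5 in UNx libraries. Here the UNx ranks were the lower ones, without overlap (difference −28.2, SE 7.93, adjusted p = 0.0849), and this region was named after its values were seen. The strongest distal region of Il6st, in an intron at +11.38 kb, ranked 70.8 ± 1.29 in Sham and 61.5 ± 3.60 after UNx (SD, n = 3; difference −9.28, adjusted p = 0.390).

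Lifr encodes the LIF receptor, which joins gp130 in the CNTF and LIF receptor complexes, and spans chr15:7090614-7197489 on the plus strand with 5 annotated starts. Its main promoter region (chr15:7128906-7130308) ranked 93.0, 97.6 and 97.2 in Sham and 92.4, 90.4 and 93.6 in UNx libraries. The groups overlapped through Sham 1, and the difference was −3.82 points (SE 1.79, limma adjusted p = 0.261). A weak neighbour at -0.86 kb was kept in 2 UNx lists at 6.63 and 16.3 and was not tested.

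Of the 12 distal Lifr regions, 2 were kept in every list of one operation but in none of the other. The region at +1.44 kb (chr15:7130709-7131142), just after the main promoter in a 5′ UTR, ranked 0, 0 and 0 in Sham and 21.5, 42.7 and 26.7 in UNx libraries (difference 30.3, SE 9.53, limma adjusted p = 0.111). One with the opposite pattern, at -6.60 kb from an inner start, ranked 9.32, 15.2 and 9.98 in Sham and 0, 0 and 0 in UNx libraries (difference −11.5, SE 7.02, adjusted p = 0.396). Neither was wholly absent from the other group: 1 whole Sham list held the first and 1 whole UNx list the other. The strongest distal region, at -48.58 kb from the first basic start and outside the gene span, held the string TTCATTGAA 7 bp from its summit and ranked 76.8 ± 7.51 in Sham and 78.2 ± 3.09 after UNx (SD, n = 3). Across the 80 regions, 2 were in all 3 UNx lists and no Sham list and 2 in all 3 Sham lists and no UNx list, against 1.04% and 0.934% of all merged regions.

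Osmr encodes the oncostatin M receptor (chr15:6813577-6874969, minus strand) and had 4 regions, the weakest set of the 8 genes. Its promoter region (chr15:6873870-6874709) ranked 24.3, 17.6 and 22.8 in Sham and 8.77, 13.4 and 0 in UNx libraries. Every UNx rank was below every Sham rank, and the whole list of UNx 3 still held a peak there. The difference was −14.2 points (SE 9.14, limma adjusted p = 0.423), the largest of the 8 main promoters in size. Over the 6 libraries the promoters most like it, by mean absolute difference in rank among 13794 genes, were those of Kcnma1 (3.54 points), Rftn2 (3.68) and Eya4 (3.97). The tested distal region, in an intron at +34.61 kb, was kept in 3 of 6 lists and differed by −7.28 points (adjusted p = 0.709), with overlapping groups.

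**Figure D4:**
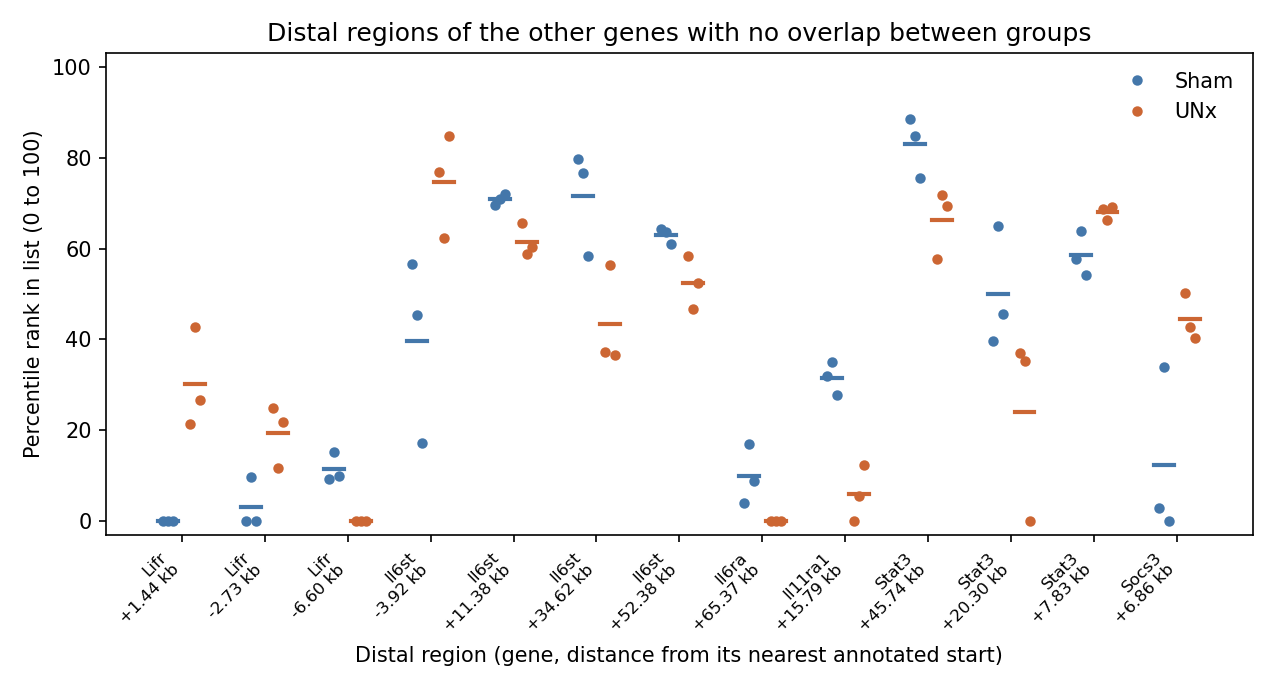
Percentile rank (0 to 100) in each library of the 13 distal regions outside Cntfr at which the groups did not overlap; points are libraries and short lines are group means. All 3 UNx points lie above all Sham points in 5 of the 13 regions and below them in 8. Among the 5 are the Il6st region at -3.92 kb, the Lifr region at +1.44 kb and the Socs3 region at +6.86 kb. Among the 8 is the Stat3 region at +20.30 kb.

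Stat3 encodes the factor that carries the signal to the nucleus (chr11:100885098-100939540, minus strand) and had 11 regions. Its promoter (chr11:100938694-100940026) was at 99.8 or higher in all 6 libraries and differed by 0.138 points (SE 1.11, limma adjusted p = 0.965). With a rank this near 100 there is little room above it for a rise. Inside the gene the region at +20.30 kb ranked 39.7, 65.0 and 45.5 in Sham and 37.0, 35.3 and 0 in UNx libraries. All UNx ranks were lower, UNx 1 by a small margin, with a difference of −26.0 points (SE 11.5, limma adjusted p = 0.235). A stronger intronic region at +45.74 kb, named after its values were seen, ranked 88.6, 84.8 and 75.6 in Sham and 57.7, 71.7 and 69.3 in UNx libraries (difference −16.8, SE 5.16, adjusted p = 0.105), again with no overlap. Past the 3′ end, in an intron of Stat5a, the region at +63.41 kb held TTCAGTGAA 11 bp from its summit and ranked 79.6 ± 3.17 in Sham and 80.7 ± 6.54 after UNx (SD, n = 3).

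Socs3 encodes the inhibitor that binds gp130 and the kinases, and its short gene body (chr11:117966079-117970047, minus strand) left the 20 kb flanks to supply most of the 9 regions. Its promoter (chr11:117968407-117970211) ranked 94.8, 93.6 and 89.8 in Sham and 99.1, 97.7 and 98.8 in UNx libraries. The lowest UNx library was above the highest Sham library, and the UNx libraries were closer together. The difference was 5.77 points (SE 1.63, limma adjusted p = 0.0861). On normal scores, which spread out the top of a list, the adjusted p was 0.0225. It missed the threshold under every other alternative run, with adjusted p up to 0.508, and was 0.446 with GC-corrected ranks.

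Downstream of Socs3 the region at +6.86 kb (chr11:117962163-117962657) ranked 2.91, 34.0 and 0 in Sham and 50.1, 42.8 and 40.4 in UNx libraries. Sham 2 was close to the UNx libraries and the other Sham libraries were near 0, and the difference of 32.2 points (SE 11.5) had a limma adjusted p of 0.149. Nearer the gene, the strongest distal Socs3 region, at +5.67 kb, ranked 92.4, 93.7 and 85.7 in Sham and 95.2, 90.1 and 90.5 in UNx libraries (difference 1.34, adjusted p = 0.807), so the groups overlapped there. The region at the start of Pgs1, at -17.64 kb from Socs3, ranked 86.5 ± 1.28 in Sham and 78.3 ± 9.93 after UNx (SD, n = 3; adjusted p = 0.301).

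**Figure D5:**
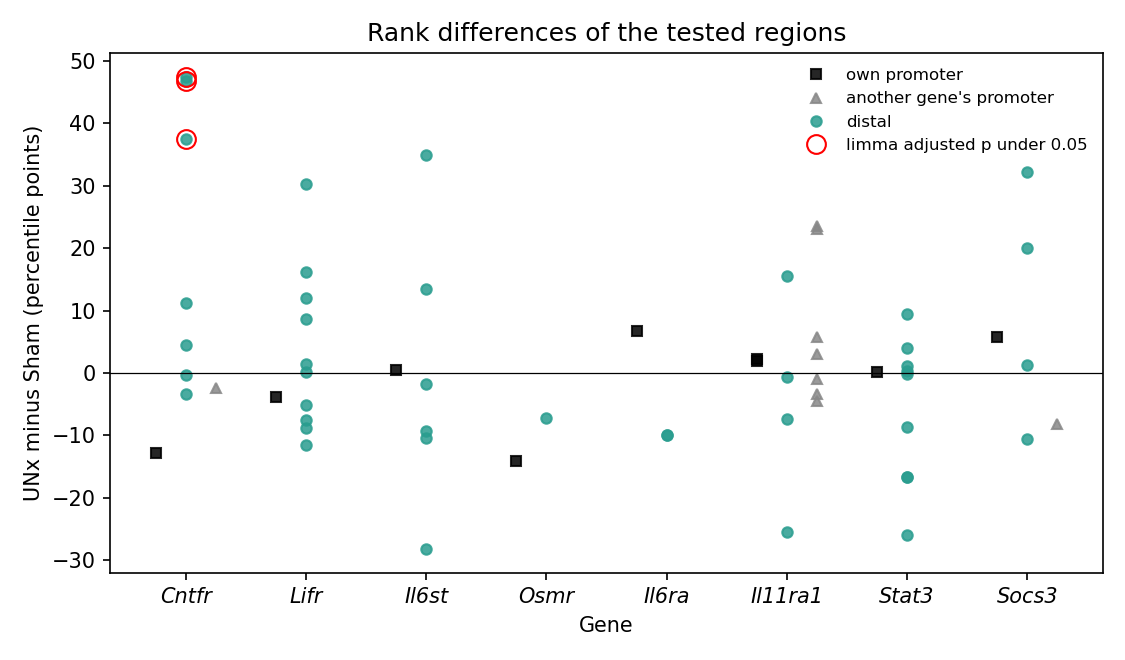
Difference in percentile rank (UNx minus Sham, percentile points) of each of the 61 tested regions by gene, with colours for promoter, other promoter and distal regions. The 3 regions of limma adjusted p under 0.05 are the Cntfr introns between 37.6 and 47.5, and the other genes' regions run from −28.2 to 34.9.

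As classes, the regions lay on both sides of 0. The median difference of the 43 tested distal regions was −0.104 points, beside −0.0254 for all tested distal regions, and −1.20 for the 36 without Cntfr, a split chosen after seeing the data. At unadjusted p under 0.05, 9 of the 61 regions were higher and 5 lower, against 18.6% of all tested regions in either direction. The number of peaks in the 8 windows among the strongest of each list was 58, 63 and 56 in Sham and 65, 63 and 59 in UNx libraries. These counts overlapped (59.0 ± 3.61 and 62.3 ± 3.06, SD, n = 3; exact permutation test, two-sided, p = 0.3, the smallest possible being 0.1). Over the whole deposited lists, which differ in length, the counts were 66, 63 and 70 in Sham and 75, 81 and 72 in UNx libraries. There they did not overlap (66.3 ± 3.51 and 76.0 ± 4.58, SD, n = 3; exact permutation test, two-sided, p = 0.1, the smallest possible).

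The STAT string TTCNNNGAA lay within 100 bp of the summit in 8 of the 80 regions (10%) and in 6.05% of all regions. It was in none of the 9 distal Cntfr regions, in 3 Lifr regions (at -48.58, +6.13 and -1.76 kb), in 3 Stat3 regions (at +63.41, +8.49 and -17.87 kb) and in the Socs3 promoter and the Socs3 region at +6.86 kb. The stricter form TTCCNGGAA, a subset of those matches, was in 3 regions (3.75%; the Socs3 promoter, Lifr at -1.76 kb and Stat3 at -17.87 kb) and in 0.896% of all. The AP-1 string TGANTCA was in 5 regions (6.25%, against 7.39% of all) and the HNF4 string in 1 (1.25%, against 2.28%). The HNF1 consensus was in 0 of the 80 and in 0.0302% of all. All strings were searched on both strands.

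Promoters of the rest of the pathway, 56 genes in 6 lists, gave no call among the 42 that were tested. Of these 13 were higher and 29 lower after UNx, against 6218 and 6984 of the 13203 tested promoters of protein-coding genes. The median was −1.19 points, beside −0.190 for all those promoters. Groups did not overlap at 3 higher and 9 lower promoters (7.14% and 21.4%), against 9.26% and 10.6% of all genes. An unadjusted limma p under 0.05 was found at 5 (11.9%), against 13.2% of all genes.

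Among the ligands, Cntf, Osm and Il11 had no promoter region, and the 4 tested genes had a median of 3.53 points. Ctf1, which encodes cardiotrophin-1, differed by 11.8 points (limma adjusted p = 0.647) and Clcf1, which encodes a second ligand of CNTFR, by 10.9 points (adjusted p = 0.451), both with overlapping groups. Of 5 other receptors only Il27ra was tested, at −3.47 points. The 4 Janus kinases had a median of −1.61 points, with Jak1 and Tyk2 lower in every UNx library.

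The 4 tested STAT genes other than Stat3 had a median of −0.920 points. Without overlap between groups, Stat5b was higher (difference 6.74, limma adjusted p = 0.244) and Stat2 lower (difference −0.963, limma adjusted p = 0.711). Of 13 inhibitor genes 7 were higher and 6 lower (median 0.936 points), and the most different of them, Pias1, which encodes a STAT-binding SUMO ligase, ranked 90.4 ± 3.01 in Sham and 82.7 ± 5.46 after UNx (SD, n = 3; difference −7.71, limma adjusted p = 0.180). Socs1 and Socs7 were higher without overlap (2.81 and 5.08 points) and Pias3 was lower without overlap (−1.56 points). Among 20 genes known as STAT3 targets, 16 were tested, of which 2 were higher and 14 lower, with a median of −3.49 points. Over all 13203 tested promoters of protein-coding genes 6218 were higher and 6984 lower. Groups did not overlap at 4 of the 16, Jun, Cebpb, Hif1a and Vegfa, all lower (25%, against 10.6% of all genes). Pim1, a kinase gene, differed by −9.15 points (adjusted p = 0.251), Cebpb, a transcription factor gene, by −7.45 points (adjusted p = 0.317) and Myc by −7.25 points (adjusted p = 0.467). The groups overlapped at Pim1 and Myc.

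At the edge of the 20 kb rule, the regions just inside were those 18.7 kb beyond the Cntfr body, which is the Il11ra1 region at +15.79 kb given above, and 18.5 kb beyond Il6st (53.7 in Sham and 51.9 in UNx libraries on average). Just outside were a region 20.1 kb beyond Il6st, at 84.2 in Sham and 77.1 in UNx libraries, and one 20.1 kb beyond Stat3, at 26.6 and 36.8.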

How the data were processed

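Open chromatin was measured by ATAC-seq in 3 Sham and 3 UNx libraries of S1 tubules. Per the submitters' processing notes, cutadapt 3.4, Bowtie, SAMtools, Picard and MACS2 2.2.7.1 were used with the genome mm10 (GRCm38); the filter on the lists is not given in the sources used here. The authors deposited a peak list per library with the fold enrichment, the −log10 p and the −log10 q of each summit, and a display score, which was not used.

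A peak was 1 distinct interval with its strongest summit. The 77355 strongest peaks of each list by −log10 q were ranked from 0 to 100 and merged where they overlapped by at least 1 bp. The 74781 regions in at least 3 of 6 lists were tested with limma 3.58.1 in R 4.3.3 (two-sided, with trend and robust variance, Benjamini-Hochberg adjustment and a threshold of 0.05), which was first tested on simulated data. A rank comes with no estimate of its counting error. The SEs rest on the spread of 3 libraries a group, which limma drew toward a trend over all tested regions. Named by rule were all promoter regions of the 8 genes and, of the distal regions, the strongest and the most different of each gene, those called and those in all lists of only one operation. The rule also took 6 pathway genes of largest difference. Some genes in the lists and windows are not reported here. Genes, lists, strings and rule were chosen with earlier results of these data known.

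The labels do not say that replicate numbers pair the libraries, so no block was used in the main test. Alternatives were all peaks, the 20000 strongest, an overlap of 50%, a −log10 q of 5 or more, ranks from fold enrichment, a promoter window of 2.5 kb, normal scores, GC-corrected ranks, a replicate block, no filter on lists, plain limma and leaving out each library.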

Additional observations from a re-analysis of the deposited data

How the results depend on the processing

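Over the whole series 589 regions passed, and 22 passed with all deposited peaks, 2 with the 20000 strongest peaks, 3 with ranking by fold enrichment, 97 with an overlap of at least 50%, 1583 with normal scores, 2 with GC-corrected ranks, 2 when regions in fewer lists were tested too and 30 to 379 with 1 library left out. Of the regions at the 8 genes, 3 passed, against 1 with all deposited peaks, with an overlap of at least 50% or with limma without trend and robust variance, 0 with the 20000 strongest peaks, fold enrichment, GC-corrected ranks or no filter, 7 with normal scores and 0 to 2 with 1 library left out. Among the fits with 1 library left out, the fewest series-wide calls came without Sham 3 (30) and without UNx 1 (31). Without UNx 1 none of the 3 Cntfr regions passed, and without Sham 3 the region at +18.57 kb did.

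Same-numbered libraries deviated together with correlations of 0.00819, −0.1 and −0.0496, and libraries of different number with correlations of −0.0778 to 0.105. With only 3 libraries a group, these values cannot decide whether the replicate numbers pair the libraries. With the replicate block 55 regions of the series passed, and with the replicate block and GC-corrected ranks 0 passed, 0 of them at the 8 genes.

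The groups did not overlap at 23 regions, and at 8 with the 20000 strongest peaks. The promoter median of 0.399 points was 4.50 with the 20000 strongest peaks, −5.27 with fold enrichment, 1.45 with a −log10 q of at least 5, −0.247 with GC-corrected ranks, 2.16 with no filter and 0.110 to 0.890 with 1 library left out. The distal median of −0.104 points was 2.19 with all deposited peaks, 5.41 with the 20000 strongest, −1.20 without the Cntfr regions (added after seeing the data) and −3.10 to 2.61 with 1 library left out. Both medians changed sign between settings. Of regions in all lists of only one operation there were 4, against 2 with a −log10 q of at least 5 and 4 to 7 with 1 library left out. The difference of 3.33 in peaks per list was 0 with the 20000 strongest peaks, 1.67 with fold enrichment, 4 with a −log10 q of at least 5, 9.67 with all deposited peaks and 1.83 to 5.33 with 1 library left out.

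Of 26 named tested regions, 18 had 1 direction throughout, the 3 Cntfr regions among them. The other 8 had small differences that changed sign. Fold enrichment gave −8.66 for the Il6st promoter, 2.74 for Il11ra1 at +7.32 kb, −5.27 for Il11ra1 at -0.80 kb, −2.50 for the Il11ra1 promoter and −2.58 for Socs3 at +5.67 kb. All deposited peaks gave 1.31 for Il11ra1 at +7.32 kb, and the 20000 strongest −1.84 for Lifr at -48.58 kb. GC-corrected ranks, with or without the replicate block, gave −0.247 for the Il6st promoter and −0.837 for the Stat3 promoter. With 1 library left out the values ran from −2.74 to 4.59 for Lifr at -48.58 kb, −0.306 to 0.890 for the Il6st promoter, −5.90 to 3.88 for Il11ra1 at +7.32 kb, −6.30 to 7.87 for Il11ra1 at -0.80 kb, −1.12 to 2.91 for Socs3 at +5.67 kb and −0.914 to 4.90 for Stat3 at +63.41 kb. The causes were not tested. Depth is unknown, and a rank cannot tell a rise at one site from a fall at others in the same list.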
